A study of Homo sapiens with 6 samples.

Results

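The 43 genes described here encode the scaffold of the sarcomere, the contractile unit of striated muscle, together with the proteins that assemble it. They are the genes of the Z-disc and M-band, the titin and nebulin filaments, the pointed end of the thin filament, the muscle chaperones and Kelch proteins, and the desmin and costamere links to the membrane. They were taken by name: the RefSeq transcript rows of each gene in the raw count table were summed per symbol over all 6 libraries. No measured value was a criterion, but the list was drawn up with earlier results of these data known. All 43 were found, among 23539 gene symbols in the table, in 114 transcript rows.

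A sarcomere runs from one Z-disc to the next. At the Z-disc, alpha-actinin cross-links the barbed ends of actin filaments from neighbouring sarcomeres, while the M-band in the middle holds the myosin filaments in register. Titin spans the distance from Z-disc to M-band, nebulin lies along the thin filament, and leiomodins and tropomodulins control the filament's pointed end. In muscle development these proteins appear as myoblasts differentiate, and folding factors such as UNC45B and SMYD1 accompany the assembly of myosin. Dermal fibroblasts have no sarcomeres, but they hold stress fibres, in which relatives of several of these proteins bind actin.

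The libraries came from 1 line of primary human dermal fibroblasts, in 3 groups of 2 cultures. Untreated fibroblasts formed the first group. In the second, WT-MyoD, the cells carried a lentivirus in which doxycycline induced mouse MyoD, the transcription factor that can turn fibroblasts towards muscle. In the third, VP64-MyoD, the same kind of vector encoded MyoD with the viral activation domain VP64 at its N-terminus. In both vectors dsRed-Express2 was expressed along with the factor through a self-cleaving peptide. Transduced cells were made with 4 µg/mL polybrene, selected in 1 µg/mL puromycin, grown to confluence and kept in 3 µg/mL doxycycline until RNA was taken on day 10. Whether the control cells received vector, polybrene, puromycin or doxycycline, and on which day they were harvested, is not given in the labels. Effects of these on the differences from untreated cells cannot be told apart from those of MyoD. All cultures share 1 line, so the p-values below speak only of differences among cultures of the same donor cells. The RNA is that of a whole culture, and more cells of a muscle type cannot be told apart from more RNA per cell.

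Library totals lay between 40997586 and 53804224 counts, and every count was even, so 1 read pair appears to stand as 2 counts and is taken so below. Levels are CPM (counts scaled to a common library size), with TMM factors for composition. The mouse transgene stood at 5.09 and 1.05 CPM in the untreated libraries, 758 and 1015 CPM under WT-MyoD and 115 and 96.5 CPM under VP64-MyoD. The source of the counts in untreated cells was not tested, and any carry-over from the other libraries would add to low untreated levels, over which folds were taken. DES stood at 1.40 and 1.27 CPM and KLHL41 at 0.802 and 0.545 CPM in the same 2 libraries. The VP64-MyoD libraries held less of the mouse transgene (log2 fold change -3.06 against WT-MyoD, SE 0.25, edgeR adjusted p = 4.2e-08). The part of this difference in the results below was not tested. The chi-square over its degrees of freedom between replicates was 3.29 for untreated, 12.8 for WT-MyoD and 5.60 for VP64-MyoD cultures, above counting noise in each. All 9 fibroblast markers had counts in every library, and their summed level was 41724 to 44174 CPM in untreated, 29035 to 33130 CPM in WT-MyoD and 30387 to 32945 CPM in VP64-MyoD libraries. By gene, 4 of the 9 were higher and 3 lower under WT-MyoD than untreated (median log2 fold change -0.02), and 2 were higher and 6 lower under VP64-MyoD (median -0.41). All 7 skeletal muscle markers were higher in each MyoD group than in untreated cells and higher under VP64-MyoD than under WT-MyoD, and their sum was 3.95 to 5.05 CPM, 553 to 625 CPM and 2448 to 2726 CPM in the 3 groups. The 7 cardiomyocyte markers summed to at most 0.420 CPM in any library, with NKX2-5 and MYBPC3 at 0 in all 6. The 6 smooth muscle markers summed to 148 CPM in each untreated library, 246 to 252 CPM under WT-MyoD and 1271 to 1497 CPM under VP64-MyoD, where DES, itself one of the 43 genes, reached 1319 and 1102 CPM and the smooth muscle myosin gene MYH11 stayed between 1.72 and 2.15 CPM. Keratinocyte markers (4 genes, KRT1 at 0 in all libraries) summed to 4.14 to 8.09 CPM, endothelial markers (4) to 0.591 to 1.94 CPM, and melanocyte markers (4, TYR at 0) to 0.762 to 1.27 CPM. Blood markers (4, CD3E at 0) summed to 68.2 and 69.8 CPM in untreated cells, 176 and 180 CPM under WT-MyoD and 45.4 and 47.0 CPM under VP64-MyoD. Nearly all of that sum was CD68, a lysosomal glycoprotein gene, at 174.8 and 178 CPM under WT-MyoD, while PTPRC stayed between 0.742 and 1.68 CPM. The part of these markers in the results was not tested.

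Most of the sarcomere scaffold rose under WT-MyoD and stood higher still under VP64-MyoD. Of the 43 genes, 39 passed the low-count filter and entered the fit over all genes; ACTN3, TCAP, MYOT and TMOD4 did not. Over untreated cells, 31 of the 39 were higher and 3 lower under WT-MyoD, against a background of 25.7% of 15778 tested genes called higher and 22.2% called lower at an edgeR adjusted p under 0.05. With VP64-MyoD, 32 were higher and 1 lower, where 33% and 30% of all tested genes were called. Directly compared, 32 were higher and 2 lower under VP64-MyoD than under WT-MyoD, beside 28.4% and 28.2% of all genes. MYBPC1, MYBPC2 and KLHL40 had at most 6 counts in any untreated or WT-MyoD library. They passed the filter only through their VP64-MyoD libraries, so their place among the genes higher there is no separate support. Both MyoD groups were set against the same untreated libraries. The 39 had a median log2 fold change of 4.31 under WT-MyoD and 8.12 under VP64-MyoD, or 2.75 and 6.27 with the 7 tested genes that had no untreated count placed at their lower bound. Between the MyoD groups it was 2.45. Over all tested genes these medians lay between 0.00 and 0.03. In all 3 comparisons 27 members were higher, and only MYOZ3, MYOM2 and CAPN3 were called in none. Non-overlapping libraries were found for 36 of the 39 between WT-MyoD and untreated, 37 between VP64-MyoD and untreated and 35 between the MyoD forms, where 71.4%, 83.2% and 78.1% of all tested genes did not overlap.

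**Figure D1:**
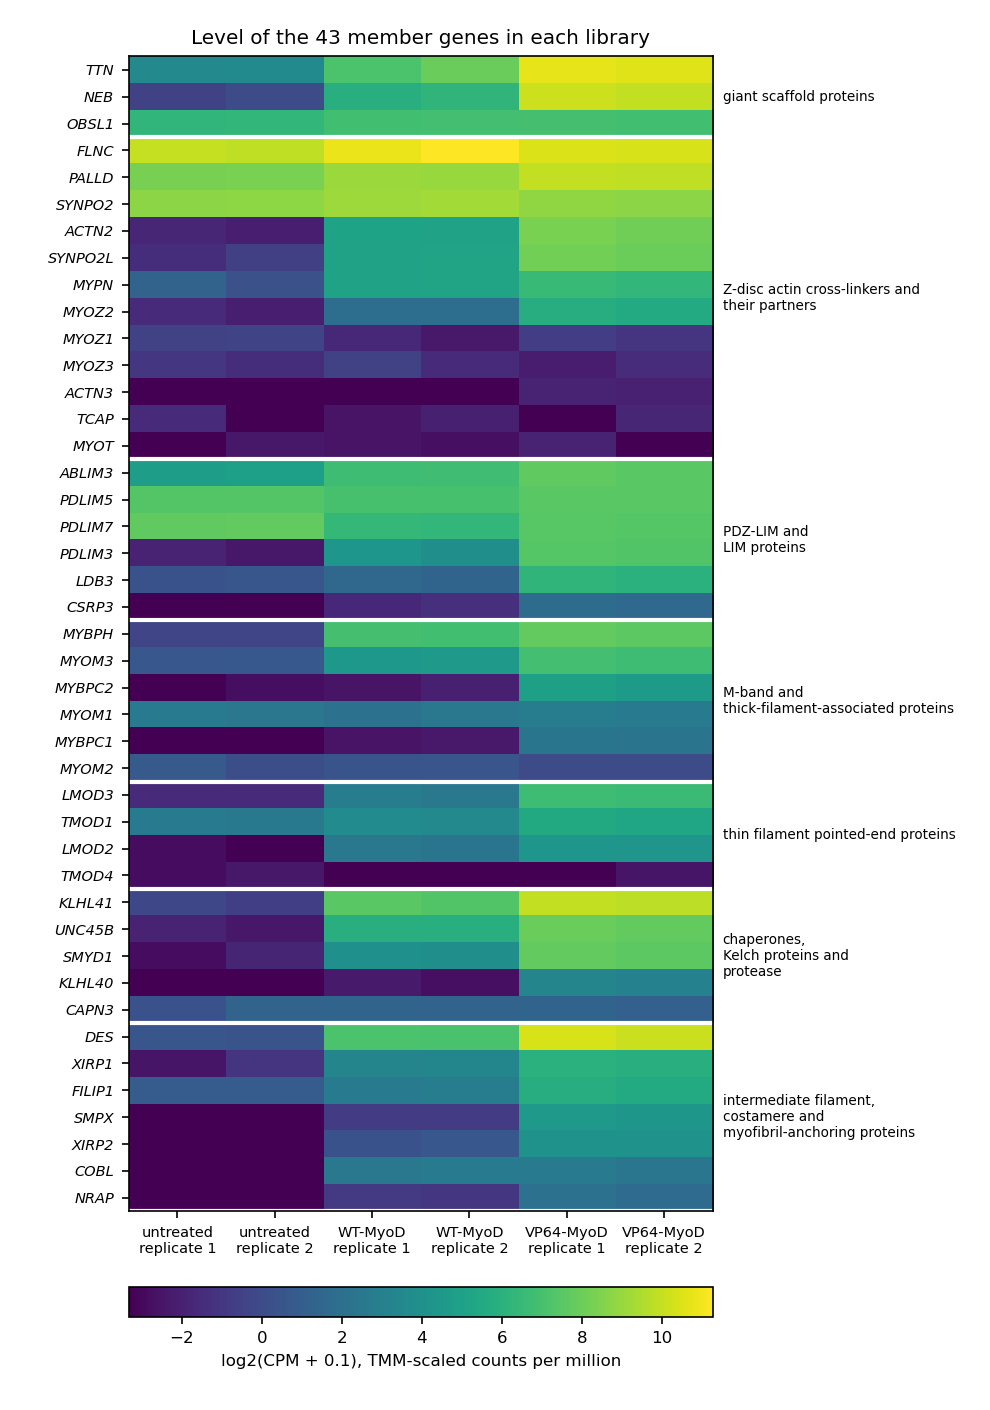
Level of each of the 43 genes in each of the 6 libraries, as log2(CPM + 0.1), with genes in rows by role and libraries in columns. Most rows brighten from untreated to WT-MyoD to VP64-MyoD; FLNC, PALLD, SYNPO2, PDLIM5, PDLIM7 and OBSL1 are bright in all 6 columns, and ACTN3, TCAP, MYOT, TMOD4 and MYOZ3 stay dark.

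The untreated fibroblasts already expressed some of the module. A mean above 5 CPM was found for 10 members: TTN, OBSL1, PALLD, FLNC, SYNPO2, PDLIM5, PDLIM7, ABLIM3, MYOM1 and TMOD1. A further 7 lay between 1 and 5 CPM, 26 lay under 1 CPM, and 8 of those had no count in either untreated library. Above 100 CPM stood 5 members in untreated cells, 10 under WT-MyoD and 19 under VP64-MyoD. The 43 genes together took 0.211% and 0.203% of the counts of the untreated libraries. That share was 0.460% and 0.506% under WT-MyoD and 1.13% and 1.04% under VP64-MyoD. FLNC alone held 45.4% and 41.6% of the members' counts in untreated cells and 42.9% and 48.9% under WT-MyoD, whereas under VP64-MyoD the largest contributor was TTN, with 15.7% and 15.1%. The 33 genes outside the 10 named above went from 0.00147% and 0.00144% of a library to 0.0826% and 0.0745% under WT-MyoD and to 0.577% and 0.517% under VP64-MyoD.

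Because so many of these genes moved together, their promoters were searched for the letters that muscle transcription factors are known to bind. RefSeq's table of gene starts (GRCh38.p14) held 46 windows for 35 of the 43 genes; MYBPC2, TCAP, UNC45B, DES, ACTN3, MYOM2, CSRP3 and COBL had none. Each window was the 250 bases before a start. The E-box CAGCTG, the core that MyoD and myogenin are known for, reads the same on both strands. It was present in 16 of the 46 windows (34.8%), against 14.0% of the 35116 windows in the table. The letters CACCTG, or CAGGTG on the other strand, were in 11 windows (23.9%, against 17.5% of all). The general form CANNTG, which includes both, was in 37 (80.4%, against 61.8%). The MEF2 motif, for a family of factors that act beside MyoD in muscle, was found on either strand in 12 windows (26.1%, against 2.80%). The CArG box, the site of SRF, was in 4 windows of 3 genes (8.70%, against 1.16%), and the LDB3 pair among them overlaps and shares its box. CAGCTG was in 10 of the 27 windows of members over 4-fold higher under VP64-MyoD than untreated and in 6 of the 19 windows of the other members, so the share was similar in both; the MEF2 motif was in 10 and 2. A match is a run of letters and not a measured binding site, windows of 1 gene can overlap, and the libraries do not show which start was used.

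Printed here are the windows of 4 genes that had CAGCTG and were over 4-fold higher with both MyoD forms or under VP64-MyoD alone, and as a contrast that of SMYD1, which also rose and held neither CAGCTG nor the MEF2 motif. They were picked after the values were seen and show where the letters lie, not a relation between them and the levels. Each runs 5′ to 3′ on the gene's strand and ends at the last base before the start; capitals mark CAGCTG and the MEF2 motif.
KLHL40, chr3:42685287-42685536, plus strand: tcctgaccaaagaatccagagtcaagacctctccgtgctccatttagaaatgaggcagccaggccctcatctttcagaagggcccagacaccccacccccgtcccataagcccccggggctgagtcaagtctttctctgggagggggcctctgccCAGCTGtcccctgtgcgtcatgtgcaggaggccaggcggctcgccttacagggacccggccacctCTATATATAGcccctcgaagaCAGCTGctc
MYBPH, chr1:203175827-203176076, minus strand: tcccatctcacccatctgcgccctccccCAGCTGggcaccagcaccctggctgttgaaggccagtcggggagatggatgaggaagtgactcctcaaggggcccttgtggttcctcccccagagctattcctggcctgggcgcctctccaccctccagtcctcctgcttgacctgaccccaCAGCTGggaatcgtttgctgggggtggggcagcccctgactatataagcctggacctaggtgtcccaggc
XIRP1, chr3:39192596-39192845, minus strand: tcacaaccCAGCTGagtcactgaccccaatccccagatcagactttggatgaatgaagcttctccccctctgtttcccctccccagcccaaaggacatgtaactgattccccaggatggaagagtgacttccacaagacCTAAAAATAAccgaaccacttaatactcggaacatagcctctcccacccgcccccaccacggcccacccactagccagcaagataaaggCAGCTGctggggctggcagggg
KLHL41, chr2:169509452-169509701, plus strand: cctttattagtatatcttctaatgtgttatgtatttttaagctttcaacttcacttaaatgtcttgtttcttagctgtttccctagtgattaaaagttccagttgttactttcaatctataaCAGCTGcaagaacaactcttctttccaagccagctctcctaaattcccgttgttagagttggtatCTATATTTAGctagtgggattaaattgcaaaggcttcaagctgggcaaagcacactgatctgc
SMYD1, chr2:88067575-88067824, plus strand: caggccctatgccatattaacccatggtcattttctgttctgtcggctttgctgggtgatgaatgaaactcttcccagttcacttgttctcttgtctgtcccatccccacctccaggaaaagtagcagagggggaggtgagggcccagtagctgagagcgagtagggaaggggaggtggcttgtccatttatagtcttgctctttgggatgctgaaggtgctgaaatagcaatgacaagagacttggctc
In KLHL40 the first base of CAGCTG lies 95 and 9 bases before the start, and a MEF2 motif lies at 30. In MYBPH it lies at 222 and 70, in XIRP1 at 242 and 22 beside a MEF2 motif at 111, and in KLHL41 at 128 beside a MEF2 motif at 63.

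Among the giant scaffold proteins, titin and nebulin rose steeply under both MyoD forms and obscurin-like 1 by little. TTN, which encodes the spring that spans the sarcomere, stood at 11.7 and 12.0 CPM in untreated cells, 141 and 242 CPM under WT-MyoD and 1715 and 1481 CPM under VP64-MyoD. The groups did not overlap, and the WT-MyoD pair was the widest apart as a ratio, though not in CPM. Its log2 fold change was 4.01 (SE 0.19) for WT-MyoD and 7.07 (SE 0.21) for VP64-MyoD over untreated, and 3.06 (SE 0.17, edgeR adjusted p = 6.2e-10) between the forms. NEB, whose product nebulin lies along the thin filament, was at 0.601 and 0.909 CPM untreated, 55.9 and 73.9 CPM under WT-MyoD and 1138 and 984 CPM under VP64-MyoD. The groups lay far apart, with log2 fold changes of 6.43 (SE 0.18) and 10.47 (SE 0.18) over untreated and 4.03 (SE 0.12, edgeR adjusted p = 4.8e-13) between the forms. OBSL1, a cytoskeletal linker that is also found outside muscle, was at 78.9 and 79.6 CPM untreated, 114 and 119 CPM under WT-MyoD and 124 and 114 CPM under VP64-MyoD. It was higher than untreated with both (log2 fold changes 0.55 and 0.59, SE 0.06 each), while the MyoD groups overlapped and their difference was not called (0.03, SE 0.06, edgeR adjusted p = 0.66).

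The long genes also separate the WT-MyoD replicates. Over all genes in the fit with a known length and at least 1 CPM in each of the 6 libraries, the median log2 ratio of WT-MyoD replicate 2 over replicate 1 was -0.12 for transcripts under 2 kb, -0.03 from 2 to 5 kb, 0.10 from 5 to 10 kb and 0.25 over 10 kb. In untreated cells it lay between -0.05 and 0.03 and under VP64-MyoD between 0.00 and 0.01. For TTN the same ratio was 0.78, for FLNC 0.42 and for NEB, which is outside that set of genes, 0.40 in WT-MyoD cells. The part of this in the fold changes of long members was not tested. The library kit does not mark the strand, and 11381 exonic bases of TTN lie under TTN-AS1, a non-coding gene on the opposite strand. TTN-AS1 stood between 4.48 and 7.14 CPM in all 6 libraries, and reads of the overlap cannot be assigned to either gene. The other opposite-strand overlaps with genes in the table were shorter in bases: NEB with RIF1 (166 bases), NRAP with HABP2 (367), PALLD with CBR4 (108), TMOD1 with TSTD2 (1669) and TMOD4 with SCNM1 (118). For TMOD1 the overlap is large beside its longest row, of 3343 bases. TSTD2 stood between 25.0 and 32.9 CPM in the 6 libraries, above TMOD1 in untreated cells (6.25 and 5.95 CPM). The part of TSTD2 reads in the untreated level of TMOD1, and so in its folds, was not tested.

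The Z-disc cross-linkers and their partners split into genes that were near 0 in fibroblasts and genes that fibroblasts already expressed. Of 12, 9 were in the fit; 7 were higher and 1 lower under WT-MyoD than untreated, 6 were higher under VP64-MyoD, and 6 were higher and 2 lower under VP64-MyoD than under WT-MyoD. ACTN2, the alpha-actinin of the Z-disc, stood at 0.200 and 0.136 CPM untreated, 35.4 and 34.3 CPM under WT-MyoD and 316 and 275 CPM under VP64-MyoD. Its groups lay far apart, with log2 fold changes of 7.65 (SE 0.16) and 10.74 (SE 0.15) over untreated and 3.08 (SE 0.08, edgeR adjusted p = 1.1e-13) between the forms. Other partners of ACTN2 behaved likewise: SYNPO2L, an actinin-binding protein, went from 0.436 to 34.6 and 271 CPM on average, MYPN (myopalladin), which ties nebulin to alpha-actinin, from 1.75 to 35.4 and 86.2 CPM, and MYOZ2, a calcineurin-binding calsarcin, from 0.188 to 3.77 and 50.6 CPM. The log2 fold changes between the forms were 2.97 (SE 0.09) for SYNPO2L, 1.28 (SE 0.12) for MYPN and 3.75 (SE 0.11) for MYOZ2. Over untreated they were 6.33 and 9.30 for SYNPO2L and 4.31 and 5.59 for MYPN. Without untreated replicate 2 the pair for SYNPO2L became 6.93 and 9.90, and without untreated replicate 1 the pair for MYPN became 4.95 and 6.24.

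The 3 Z-disc genes with the highest levels per kilobase were expressed in untreated fibroblasts already and changed by less than 4-fold. FLNC, filamin C, which cross-links actin at the Z-disc and costamere, was at 1032 and 925 CPM untreated, 1843 and 2465 CPM under WT-MyoD and 1470 and 1355 CPM under VP64-MyoD. The WT-MyoD libraries were the highest and none of the groups overlapped. FLNC was lower under VP64-MyoD than under WT-MyoD by -0.61 on the log2 scale (SE 0.11, edgeR adjusted p = 1.9e-04), and by -0.40 without WT-MyoD replicate 2. SYNPO2, an actin-bundling partner of filamin, stood at 422 and 449 CPM untreated, 553 and 613 CPM under WT-MyoD and 462 and 417 CPM under VP64-MyoD. It too was lower under VP64-MyoD than under WT-MyoD (-0.41, SE 0.07, edgeR adjusted p = 2.3e-04), and its untreated and VP64-MyoD libraries overlapped (0.01, SE 0.07, edgeR adjusted p = 0.88). PALLD, palladin, an actin-binding scaffold of stress fibres and Z-discs, was at 306 and 320 CPM untreated, 537 and 524 CPM under WT-MyoD and 969 and 955 CPM under VP64-MyoD. In contrast with the other pair it rose at each step, by 0.76 (SE 0.06) under WT-MyoD over untreated and 0.86 (SE 0.06, edgeR adjusted p = 1.7e-08) under VP64-MyoD over WT-MyoD.

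The remaining Z-disc genes, 5 in number, stayed at or near the limit of counting in every group. ACTN3, the alpha-actinin of fast fibres, had no count in the untreated and WT-MyoD libraries and 4 read pairs in each VP64-MyoD library (0.172 and 0.153 CPM), at least 2.53-fold above a floor of 3 read pairs over the untreated group. TCAP (telethonin), which joins the ends of titin molecules, lay at 0.241 and 0 CPM untreated, 0.0706 and 0.146 CPM under WT-MyoD and 0 and 0.191 CPM under VP64-MyoD. MYOT (myotilin), an alpha-actinin binder, lay at 0 and 0.0909 CPM, 0.0706 and 0.0487 CPM, and 0.172 and 0 CPM in the same order. Neither gene exceeded 0.241 CPM in any library. MYOZ1, a calsarcin of fast fibres, was at 0.642 and 0.682 CPM untreated, 0.212 and 0.0973 CPM under WT-MyoD and 0.516 and 0.382 CPM under VP64-MyoD. It was lower under WT-MyoD than untreated (log2 fold change -2.01, SE 0.50, edgeR adjusted p = 0.0037; -2.73 without WT-MyoD replicate 1). VP64-MyoD was above WT-MyoD (1.45, SE 0.53, edgeR adjusted p = 0.029), a call that DESeq2 did not make (adjusted p = 0.057). Without WT-MyoD replicate 2, VP64-MyoD replicate 1 or VP64-MyoD replicate 2 the value was 1.05, 1.23 or 1.66 and not called, and without WT-MyoD replicate 1 it was 2.17. MYOZ3 lay between 0.129 and 0.600 CPM in all 6 libraries, with no call.

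**Figure D2:**
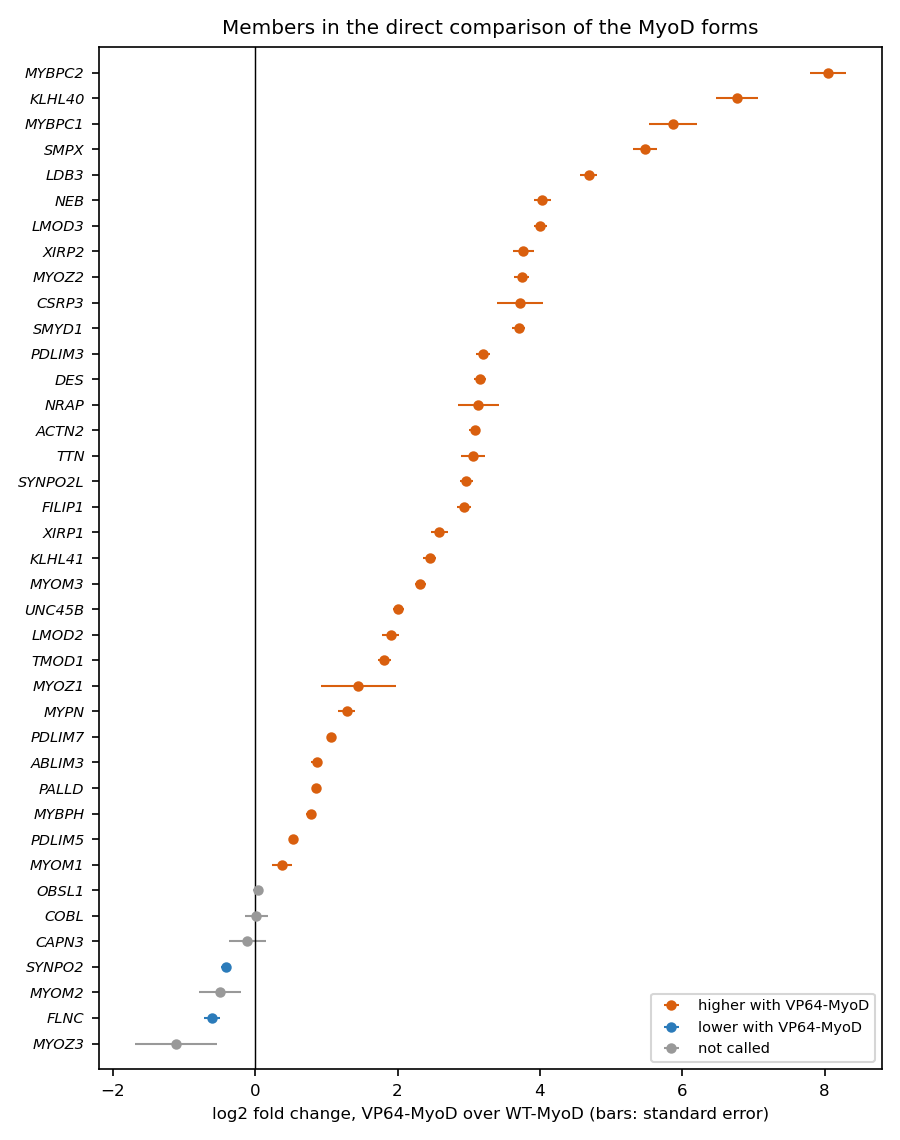
Log2 fold change of VP64-MyoD over WT-MyoD for the 39 members in the fit, sorted, with bars for the standard error and colours for the call at an edgeR adjusted p under 0.05. The points run from MYBPC2 at 8.05 down to MYOZ3 at -1.11, with 32 called higher and with FLNC and SYNPO2 called lower.

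All 6 PDZ-LIM and LIM genes were higher under VP64-MyoD than under WT-MyoD, from opposite starting points. Several of these proteins use a PDZ or LIM domain to bind alpha-actinin and carry signalling proteins to the Z-disc. PDLIM3, the actinin-associated LIM protein of muscle, went from 0.160 and 0.0909 CPM untreated to 20.1 and 15.4 CPM under WT-MyoD and 171 and 158 CPM under VP64-MyoD. The log2 fold change between the MyoD forms was 3.20 (SE 0.10, edgeR adjusted p = 8.1e-13), with all groups apart. LDB3 (ZASP or Cypher), which stabilises the contracting Z-disc, stood on average at 1.29 CPM untreated, 2.66 CPM under WT-MyoD and 68.9 CPM under VP64-MyoD. Its rise was thus small under WT-MyoD (log2 fold change 1.06, SE 0.17) and large from WT-MyoD to VP64-MyoD (4.68, SE 0.11, edgeR adjusted p = 8.1e-14). CSRP3, the muscle LIM protein, had no untreated count and stood at 0.212 and 0.292 CPM under WT-MyoD and 3.44 and 3.13 CPM under VP64-MyoD. That is at least 3.84-fold and at least 51.2-fold above the untreated floor, and 3.72 (SE 0.33, edgeR adjusted p = 2.3e-07) on the log2 scale between the forms. ABLIM3, an actin-binding LIM protein, was at 27.8 and 29.7 CPM untreated, 105 and 110 CPM under WT-MyoD and 208 and 182 CPM under VP64-MyoD. Its groups did not overlap, and it differed by 0.86 (SE 0.07, edgeR adjusted p = 6.5e-08) between the forms.

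PDLIM7 and PDLIM5, the members of this group that fibroblasts express most, fell under WT-MyoD. PDLIM7 (enigma) was at 206 and 214 CPM untreated, 85.3 and 80.6 CPM under WT-MyoD and 177 and 172 CPM under VP64-MyoD. WT-MyoD lay lowest and no groups overlapped: the log2 fold change was -1.34 (SE 0.06, edgeR adjusted p = 5.3e-11) for WT-MyoD and -0.27 (SE 0.06, edgeR adjusted p = 0.0014) for VP64-MyoD over untreated, and 1.07 (SE 0.06) between the forms. PDLIM5 (enigma homologue) was at 163 and 168 CPM untreated, 128 and 130 CPM under WT-MyoD and 185 and 188 CPM under VP64-MyoD. It fell by 0.36 on the log2 scale under WT-MyoD (SE 0.06, edgeR adjusted p = 1.2e-04) and was 0.53 (SE 0.06, edgeR adjusted p = 1.9e-06) higher under VP64-MyoD than under WT-MyoD. The rise of PDLIM5 under VP64-MyoD over untreated was small (0.17, SE 0.06, edgeR adjusted p = 0.019), and it was not called without either untreated library (0.15 and 0.19) or without either VP64-MyoD library (0.18 and 0.16).

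PDLIM5 was also the only member called for a change of transcript use. Of the 24 members with several transcript rows, 21 could be tested with edgeR's diffSpliceDGE, which sets each row against the rest of its gene; 0 were called for WT-MyoD over untreated (0.265% of 6040 genes), 1 for VP64-MyoD over untreated (0.811%) and 1 between the forms (0.596%). The 4 PDLIM5 rows with the shortest coding length, 408 to 702 bases, are of a kind known to encode forms without the LIM domains, but include a row that RefSeq lists as non-coding. Together these 4 rows held 3.15% and 3.39% of the PDLIM5 counts in untreated cells, 3.50% and 3.97% under WT-MyoD and 6.58% and 5.26% under VP64-MyoD. Among them a row with a coding length of 702 bases had 96 and 84 counts untreated, 92 and 76 under WT-MyoD and 246 and 228 under VP64-MyoD. Relative to the other PDLIM5 rows it was 0.80 higher on the log2 scale under VP64-MyoD than untreated (edgeR adjusted p = 1.2e-05) and 0.66 higher than under WT-MyoD (edgeR adjusted p = 9.1e-04). The other short rows were not called. The 4 short rows remained a small part of the gene's counts, with the next row, of coding length 813 bases, left out of them.

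For TTN, the shortest row, of 18218 bases and known as novex-3, held 2 of 584 and 4 of 528 counts in untreated cells. It held 768 of 7974 and 708 of 9952 counts under WT-MyoD and 10014 of 79792 and 9956 of 77612 under VP64-MyoD, or 9.63%, 7.11%, 12.6% and 12.8% in the MyoD libraries against 0.342% and 0.758% untreated. The change of its share was not called (edgeR adjusted p = 0.25 for VP64-MyoD over untreated). Of this row 8.59% of the bases lie under TTN-AS1, against 10.3% to 12.6% in the other TTN rows. How reads of shared exons were assigned to rows is not given in the sources used here, so the shares of rows depend on an unknown rule.

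**Figure D3:**
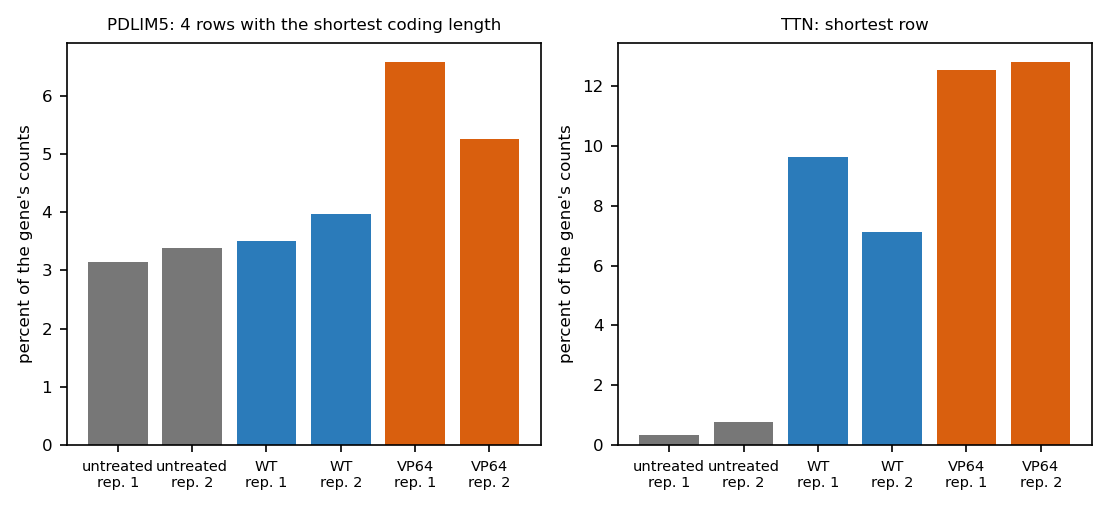
Bars give, for each of the 6 libraries, the percent of the PDLIM5 counts in its 4 rows of shortest coding length (left) and the percent of the TTN counts in its shortest row (right). The PDLIM5 share is 3.15% to 3.97% in untreated and WT-MyoD libraries and 5.26% to 6.58% under VP64-MyoD; the TTN share is under 1% untreated and 7.11% to 12.8% in the MyoD libraries.

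At the M-band and along the thick filament, members ranged from near-equal levels with both MyoD forms to the steepest differences of the module. MYBPH, a myosin-binding protein of early and fast muscle, was at 0.722 and 0.727 CPM untreated, 123 and 117 CPM under WT-MyoD and 219 and 193 CPM under VP64-MyoD. Most of its rise was present under WT-MyoD: the log2 fold change was 7.37 (SE 0.12) there and 0.78 (SE 0.07, edgeR adjusted p = 1.4e-07) from WT-MyoD to VP64-MyoD. MYBPC2, the fast myosin-binding protein C, showed the reverse, with 0 and 1 untreated read pairs (0 and 0.0454 CPM), 0.0706 and 0.146 CPM under WT-MyoD and 31.1 and 24.7 CPM under VP64-MyoD. WT-MyoD was not called over untreated, and VP64-MyoD was 8.05 above WT-MyoD (SE 0.26, edgeR adjusted p = 9.1e-13). Over the single untreated read pair the VP64-MyoD level was 1300-fold, with a 95% counting interval of 233 to 51392. MYBPC1, the slow form, had no untreated count and stood at 0.0706 and 0.0973 CPM under WT-MyoD and 4.99 and 4.89 CPM under VP64-MyoD. It was at least 77.2-fold above the untreated floor under VP64-MyoD and 5.87 (SE 0.34, edgeR adjusted p = 2.2e-09) above WT-MyoD. The 4 read pairs under WT-MyoD were called over untreated (edgeR adjusted p = 0.013) but not without untreated replicate 1 (adjusted p = 0.058).

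The myomesins, which cross-link myosin at the M-band, did not move as a family. MYOM3 was at 1.44 and 1.50 CPM untreated, 21.9 and 22.9 CPM under WT-MyoD and 118 and 106 CPM under VP64-MyoD. It rose by log2 fold changes of 3.93 (SE 0.11) and 6.25 (SE 0.10) over untreated and by 2.32 (SE 0.07, edgeR adjusted p = 1.0e-12) between the forms. MYOM1 was at 6.17 and 5.36 CPM untreated, 4.48 and 5.64 CPM under WT-MyoD and 6.83 and 6.26 CPM under VP64-MyoD. Neither MyoD group was called over untreated for MYOM1. The difference between the forms (0.38, SE 0.14, edgeR adjusted p = 0.036) was not called by DESeq2 (adjusted p = 0.085), nor without WT-MyoD replicate 1 (0.21) or either VP64-MyoD library (0.32 and 0.44). MYOM2 was at 1.64 and 1.05 CPM untreated, 1.31 and 1.31 CPM under WT-MyoD and 0.903 and 0.954 CPM under VP64-MyoD, with no call.

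At the pointed end of the thin filament, both leiomodins and tropomodulin 1 rose, each highest under VP64-MyoD. LMOD3, which nucleates and lengthens actin filaments in skeletal muscle, was at 0.241 and 0.227 CPM untreated, 6.96 and 5.60 CPM under WT-MyoD and 105 and 99.0 CPM under VP64-MyoD. Its difference between the forms was 4.01 (SE 0.10, edgeR adjusted p = 7.9e-14). LMOD2 had 1 untreated read pair in all (0.0401 and 0 CPM) and stood at 5.54 and 5.01 CPM under WT-MyoD and 19.9 and 19.7 CPM under VP64-MyoD. Against that read pair it was 250-fold (95% counting interval 44.4 to 9903) and 929-fold (166 to 36735) higher, and between the forms it differed by 1.90 (SE 0.12, edgeR adjusted p = 2.8e-09). TMOD1, which caps the pointed end, was at 6.25 and 5.95 CPM untreated, 12.9 and 11.5 CPM under WT-MyoD and 46.1 and 40.3 CPM under VP64-MyoD, a difference of 1.82 (SE 0.09, edgeR adjusted p = 2.4e-10) between the forms. TMOD4, the tropomodulin of fast muscle, had at most 2 read pairs in any library and was not tested.

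Among the folding and turnover factors, 4 of 5 rose with both forms. KLHL41, a Kelch protein that stabilises nebulin, was at 0.802 and 0.545 CPM untreated, 185 and 155 CPM under WT-MyoD and 974 and 887 CPM under VP64-MyoD. UNC45B, the myosin chaperone of striated muscle, went from 0.160 and 0.0909 CPM to 58.2 and 56.2 CPM and 248 and 213 CPM. SMYD1, a muscle methyltransferase that works with UNC45B on myosin, went from 0.0401 and 0.182 CPM to 16.2 and 15.5 CPM and 218 and 195 CPM. All groups lay apart for these genes, and the log2 fold change between the forms was 2.45 (SE 0.09) for KLHL41, 2.01 (SE 0.08) for UNC45B and 3.70 (SE 0.09) for SMYD1, with edgeR adjusted p-values of 4.1e-12, 7.2e-12 and 8.1e-14. The SMYD1 fold changes over untreated, 7.19 and 10.89, rest on 5 untreated read pairs: they were 6.43 and 10.13 without untreated replicate 1 and 8.54 and 12.24 without untreated replicate 2. KLHL40, which protects nebulin and LMOD3 from degradation, had no untreated count and stood at 0.106 and 0.0487 CPM under WT-MyoD and 9.80 and 8.55 CPM under VP64-MyoD. It was at least 143-fold above the untreated floor under VP64-MyoD and 6.77 above WT-MyoD (SE 0.30, edgeR adjusted p = 1.1e-10; 7.48 without WT-MyoD replicate 1). With WT-MyoD its 4 read pairs were at least 1.28-fold above the floor; that call (edgeR adjusted p = 0.015) was lost with counts halved to read pairs (0.059), without either untreated library (0.066 and 0.054) and without WT-MyoD replicate 1 (0.083). CAPN3, a titin-bound protease, stood between 1.20 and 2.54 CPM in all 6 libraries and had no call. Without untreated replicate 2, though, CAPN3 was called higher under WT-MyoD (1.05, edgeR adjusted p = 0.0074) and under VP64-MyoD (0.94, edgeR adjusted p = 0.010).

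The genes that link myofibrils to one another and to the membrane all rose with both forms, and 4 of the 7 came from no untreated count. DES, desmin, the intermediate filament that ties Z-discs together, was at 1.40 and 1.27 CPM untreated, 139 and 133 CPM under WT-MyoD and 1319 and 1102 CPM under VP64-MyoD. Its log2 fold changes were 6.66 (SE 0.12) and 9.81 (SE 0.13) over untreated and 3.16 (SE 0.09, edgeR adjusted p = 2.1e-13) between the forms. The actin-binding Xin repeat genes moved alike. XIRP1 went from 0.0802 and 0.364 CPM to 9.78 and 10.2 CPM and 63.5 and 56.6 CPM, and XIRP2 from 0 in both to 1.20 and 1.46 CPM and 17.8 and 18.2 CPM. Between the forms XIRP1 differed by 2.59 (SE 0.12) and XIRP2 by 3.77 (SE 0.15), with edgeR adjusted p-values of 5.1e-11 and 3.2e-11. Over untreated XIRP2 was at least 20.5-fold and at least 281-fold higher. The XIRP1 log2 fold changes of 5.53 and 8.12 over untreated were 4.77 and 7.35 without untreated replicate 1 and 6.91 and 9.50 without untreated replicate 2.

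SMPX, a small costamere protein of the X chromosome, had no untreated count and stood at 0.494 and 0.487 CPM under WT-MyoD and 22.8 and 21.1 CPM under VP64-MyoD. It was at least 7.68-fold and at least 343-fold above the untreated floor and 5.48 (SE 0.16, edgeR adjusted p = 1.7e-12) higher under VP64-MyoD than under WT-MyoD. NRAP, a nebulin-related protein of growing myofibrils, stood at 0 in untreated cells, 0.459 and 0.389 CPM under WT-MyoD and 4.30 and 3.28 CPM under VP64-MyoD, at least 6.72-fold and at least 58.8-fold above the floor. VP64-MyoD was above WT-MyoD for NRAP by 3.14 (SE 0.29, edgeR adjusted p = 4.2e-07). FILIP1, a filamin-interacting protein, went from 1.76 and 1.82 CPM to 6.53 and 6.91 CPM and 54.4 and 48.3 CPM, a log2 difference of 2.94 (SE 0.09) between the forms (edgeR adjusted p = 1.1e-12). COBL (cordon-bleu), an actin nucleator, was the exception in the direct comparison. It had no untreated count, 5.58 and 6.13 CPM under WT-MyoD and 6.71 and 5.15 CPM under VP64-MyoD, at least 90.9-fold and at least 92.1-fold above the floor. The MyoD groups overlapped for COBL, and the difference was not called (0.02, SE 0.16, edgeR adjusted p = 0.93).

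The level under WT-MyoD as a share of that under VP64-MyoD orders the 32 members that were higher under VP64-MyoD than in untreated cells. The same VP64-MyoD libraries served to pick these members and to form the share, which favours low shares. Tested members left out by this choice had shares from 34.5% (MYOZ1) to 213% (MYOZ3). Among the 32 the median share was 12.4%. It was under 10% for 11 members, led by MYBPC2 (0.388%), KLHL40 (0.843%), MYBPC1 (1.70%), SMPX (2.23%) and LDB3 (3.86%). For MYBPC2, KLHL40 and MYBPC1 the share rests on 5, 4 and 4 WT-MyoD read pairs, so these values are coarse and their order was not tested. The share lay from 10% to 30% for 13, among them TTN, ACTN2 and DES. Another 7 stood between 30% and 100%: MYPN (41.1%), ABLIM3 (55.0%), PALLD (55.2%), MYBPH (58.2%), PDLIM5 (69.3%), OBSL1 (97.6%) and COBL (98.8%). FLNC alone was over 100%, at 152%. PALLD, PDLIM5, OBSL1, ABLIM3 and FLNC are among the 10 members above 5 CPM in untreated cells, whereas MYBPH and COBL were under 1 CPM there. For genes already expressed in untreated cells the share includes that level and is no measure of a rise. PDLIM5, for one, was lower under WT-MyoD than untreated. Of the 32, VP64-MyoD replicate 1 was above replicate 2 in 30.

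**Figure D4:**
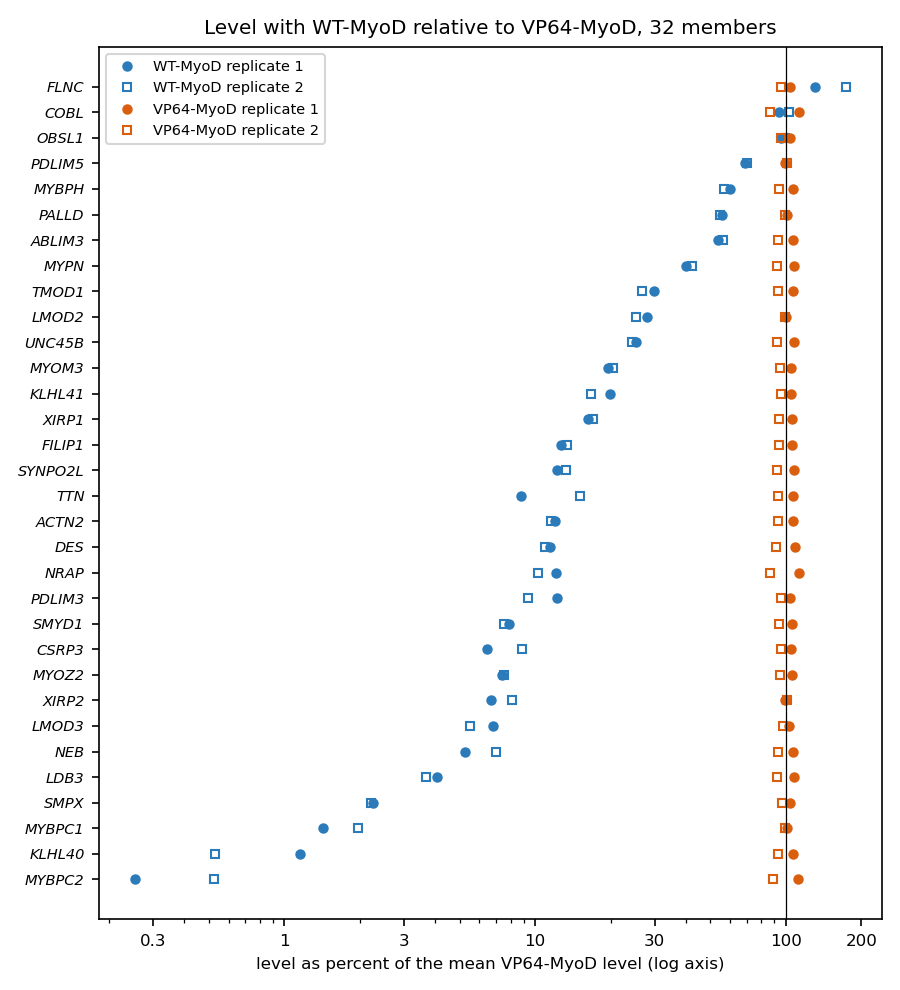
For the 32 members higher under VP64-MyoD than untreated, each library's level as a percent of the mean VP64-MyoD level, on a log axis, with genes sorted by the mean WT-MyoD share. The WT-MyoD points run from under 1% for MYBPC2 to 152% on average for FLNC, while the VP64-MyoD replicates lie close to 100%.

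Divided by transcript length, the order of the members changed between groups. In CPM per kilobase, untreated cells had PDLIM7 (140.9 ± 4.0, SD, n = 2), FLNC (107 ± 8.3), PALLD (79.0 ± 2.5) and SYNPO2 (58.0 ± 2.8) at the top. With WT-MyoD the highest per kilobase were FLNC (236 ± 48), PALLD (134 ± 1.9), SYNPO2 (78.7 ± 7.1), KLHL41 (69.0 ± 8.5), MYBPH (66.4 ± 2.4) and DES (60.4 ± 2.0). Of these, the libraries of SYNPO2 and KLHL41, and likewise of KLHL41 and MYBPH, overlapped. With VP64-MyoD the order per kilobase began with DES (538 ± 68), KLHL41 (377 ± 25), PALLD (243 ± 2.7) and FLNC (155 ± 8.9), followed by PDLIM7 (119 ± 2.8), MYBPH (114 ± 10) and PDLIM3 (103 ± 6.2), where the libraries of neighbouring genes overlapped although the means of MYBPH and PDLIM3 differed by more than either SD. Then came SYNPO2 (61.1), ACTN2 (60.7) and SYNPO2L (60.0) with near-equal levels per kilobase. TTN, first by CPM under VP64-MyoD, ranked 17 per kilobase (26.0 ± 2.6), and NEB ranked 15 (42.7 ± 4.4). Divided by coding length instead, the order differed in part. PDLIM7 stayed first in untreated cells with SYNPO2 second and FLNC at rank 4, DES rose to rank 4 and PDLIM5 to rank 5 (94.2 CPM per coding kilobase) under WT-MyoD, and PDLIM3 to rank 4 under VP64-MyoD, where TTN ranked 22.

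The broadly expressed relatives of these proteins did not rise with them as a group. Of 28 such genes 27 were in the fit; under WT-MyoD 7 were higher and 14 lower than untreated, under VP64-MyoD 8 and 15, and between the forms 9 and 10, with median log2 fold changes of -0.39, -0.29 and -0.09. Against all tested genes (25.7% higher and 22.2% lower under WT-MyoD, 33% and 30% under VP64-MyoD, 28.4% and 28.2% between the forms), the share called higher was near the background under WT-MyoD, and so was the split between the forms. ACTN1, a non-muscle alpha-actinin, stood at 1220 and 1267 CPM untreated, 625 and 658 CPM under WT-MyoD and 1199 and 1129 CPM under VP64-MyoD. Unlike ACTN2 it was lowest under WT-MyoD, by -0.95 (SE 0.07) against untreated, and VP64-MyoD was 0.86 (SE 0.07, edgeR adjusted p = 3.9e-08) above WT-MyoD. CSRP2, a LIM protein related to CSRP3, followed ACTN1, with 26.0 and 23.2 CPM untreated, 13.2 and 11.8 CPM under WT-MyoD and 30.3 and 30.3 CPM under VP64-MyoD. SYNPO (synaptopodin), the relative of SYNPO2, was like it highest under WT-MyoD, and VP64-MyoD differed from WT-MyoD by -0.90 on the log2 scale (SE 0.07, edgeR adjusted p = 3.6e-08). In the families plotted here, LMOD1 fell by 0.92 and 1.72 on the log2 scale over untreated while LMOD3 and LMOD2 rose, and FLNA fell by 0.65 and 0.80 while FLNC rose. LMOD1, though listed among the 28 relatives, is also one of the smooth muscle markers counted above, so it does not stand for a non-muscle gene.

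**Figure D5:**
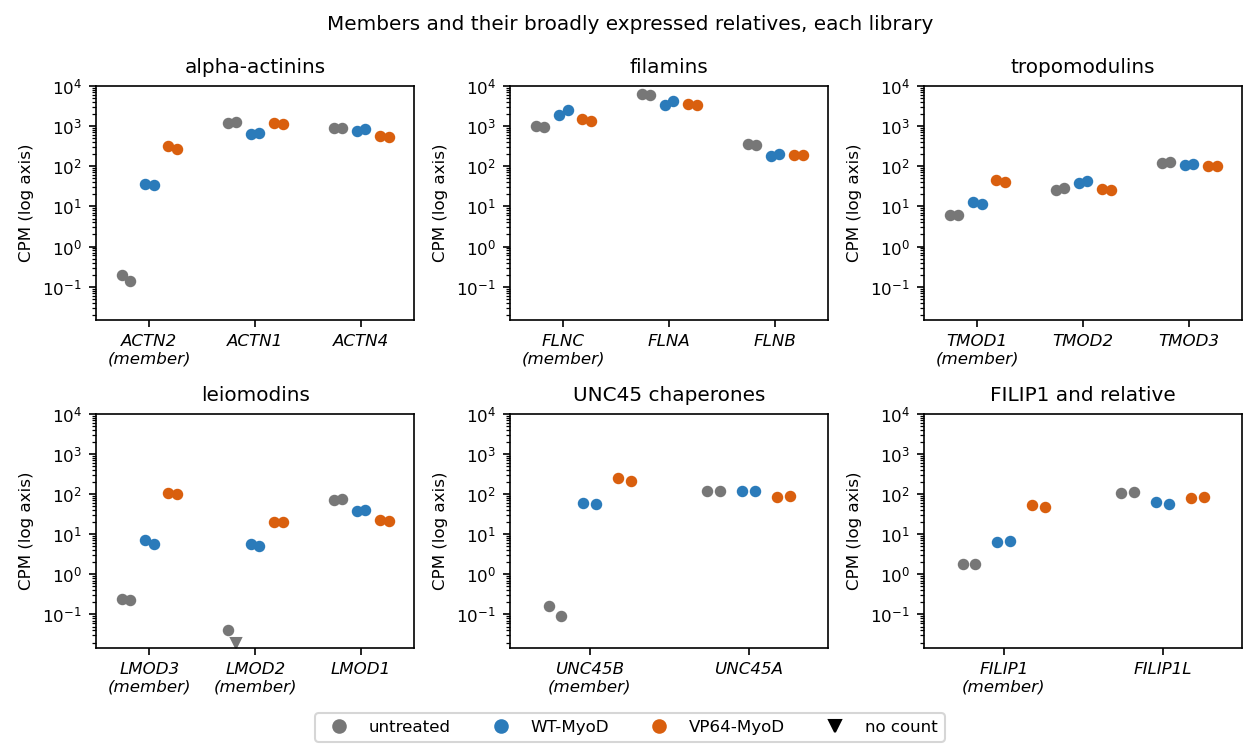
CPM of members and of their relatives in each of the 6 libraries, on a log axis, in 6 families; triangles mark a library with no count. ACTN2, LMOD2, LMOD3 and UNC45B climb from under 1 CPM in untreated cells, while ACTN1, ACTN4, LMOD1 and UNC45A stay between 20 and 1300 CPM in every library.

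Other sarcomere genes that are not in the module were counted beside it. Of 25 thick and thin filament genes in the count table, 21 were in the fit: 18 were higher and 1 lower under WT-MyoD than untreated, 21 were higher under VP64-MyoD, and 20 were higher under VP64-MyoD than under WT-MyoD, with median log2 fold changes of 6.25, 8.84 and 2.67. With the 3 tested filament genes that had no untreated count placed at their lower bound, the medians over untreated were 4.19 and 7.67. MYH3, the embryonic myosin heavy chain, stood at 1.68 and 2.00 CPM untreated, 13.1 and 10.8 CPM under WT-MyoD and 399 and 380.0 CPM under VP64-MyoD. MYH2, a fast myosin heavy chain, stood at 0.722 and 0.591 CPM untreated, 2.26 and 2.34 CPM under WT-MyoD and 59.3 and 53.2 CPM under VP64-MyoD. The fast troponin C gene TNNC2 was at 0.321 and 0.273 CPM untreated, 0.636 and 0.487 CPM under WT-MyoD and 65.5 and 57.4 CPM under VP64-MyoD. MYH3, TNNC2 and MYH2 were 5.02 (SE 0.09), 6.74 (SE 0.14) and 4.61 (SE 0.11) higher on the log2 scale under VP64-MyoD than under WT-MyoD. Of 22 further Z-disc, M-band, titin-binding and costamere genes, 21 were in the fit, and their calls were more mixed than those of the filament genes: 14 higher and 4 lower under WT-MyoD, 13 and 5 under VP64-MyoD, and 12 and 3 between the forms, with medians of 0.79, 1.18 and 0.54. Over all tested genes, 25.7% were called higher and 22.2% lower under WT-MyoD, 33% and 30% under VP64-MyoD, and 28.4% and 28.2% between the forms. The lower calls of the 21 were thus not more frequent than over all genes. Among the 22 genes TRIM55 (MURF2), which binds titin at the M-band, was 5.06 (SE 0.11) higher under VP64-MyoD than under WT-MyoD, and ANKRD1, a titin-binding ankyrin repeat protein, 2.95 (SE 0.08) higher. HSPB7, a small heat shock protein that binds filamin C, went the other way, at 84.6 and 82.3 CPM untreated, 180 and 184 CPM under WT-MyoD and 34.3 and 30.9 CPM under VP64-MyoD (log2 fold change between the forms -2.48, SE 0.07, edgeR adjusted p = 2.8e-13). FLNC and HSPB7 were thus both highest under WT-MyoD.

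The authors' deposited table of comparisons, which holds 3135 transcripts, includes 44 transcripts of 21 members. For all 44, both MyoD forms have a log2 fold change above 0 over untreated in the authors' deposited table. That table rests on the same 6 libraries and holds only transcripts with small adjusted p-values in both comparisons. Members that changed little in either could hardly enter it, so the shared sign is not independent support.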

How the data were processed

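Polyadenylated RNA of 6 libraries, 2 in each of 3 groups, was sequenced after transposase tagmentation, per the labels' protocols. The submitters' processing notes name hg19 as the genome build and, as tools, Bowtie 0.12.9, CASAVA and DESeq 1.10.1. The deposited table holds whole-number counts per RefSeq transcript, not normalized, made by the authors. A second deposited table, of the authors' comparisons, has per group a signal (counts over size factors), linear and log2 fold changes, and adjusted p-values at or under 9.82e-06 and 9.95e-06, per the file headers; it was used for signs only.

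Of 40710 rows, 39320 were matched to a symbol by accession through RefSeq and 520 through GENCODE 29; 869 had no symbol (0.601% to 0.745% of counts) and were kept as separate features. Counts were summed per symbol. The 6 libraries entered 1 edgeR 4.0.16 fit (R 4.3.3; TMM, filterByExpr with minimum count 10 and minimum total 15, two-sided quasi-likelihood test, 3 residual degrees of freedom) of 15778 features beside the transgene, with Benjamini-Hochberg adjustment over all of them; an adjusted p under 0.05 was a call. The script was tested on simulated counts. A bound is taken against 3 read pairs over the group; intervals are 95% and cover counting error only. Levels per kilobase use GENCODE 29 transcript lengths. RLE factors, DESeq2 1.42.0, limma-voom 3.58.1, other filters and leaving out each library were tried.

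The members and lists were chosen with earlier results of these data known. Library values are given for the 4 most abundant members of each role, for members with no count in an untreated library and for members lower or not called in a comparison; genes of the 3 lists of related genes are named by the 3 smallest adjusted p-values between the MyoD forms, and by a change over 4-fold for the relatives. A result that this rule names is not reported here. ACTN1 and the families plotted with it, and the printed promoters, were chosen after the values were seen.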

Additional observations from a re-analysis of the deposited data

How the results depend on the processing

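The counts of members called stayed within 1.5 times the values given under RLE factors, DESeq2, limma-voom, both other filters, halved counts, fits of 2 groups, transcript rows and the replicate block, and also when 1 library was left out, except for those lower under VP64-MyoD than untreated without untreated replicate 2. Leaving out 1 library gave 29 to 31 higher and 3 lower for WT-MyoD over untreated, 31 to 32 higher and 1 to 2 lower for VP64-MyoD over untreated (2 without untreated replicate 2, with MYOM2 added at -0.83), and 30 to 32 higher and 2 to 3 lower between the forms (3 without WT-MyoD replicate 2, with MYOZ3 at -1.58). With the replicate number as a block the members gave 31 and 3, 32 and 1, and 32 and 2 calls, unchanged; the same numbers do not pair the cultures (correlations of deviations 0.032, 0.022 and 0.007). Of 1626 recomputed member fold changes, 1595 kept direction and call, 17 lost the call, 5 gained it and 9 changed sign, and the cause was not tested. All 9 were uncalled, and leaving out 1 library gave these lowest and highest values: for WT-MyoD over untreated, MYOZ3 -0.48 to 0.83 and MYOM2 -0.33 to 0.32; for VP64-MyoD over untreated, SYNPO2 -0.063 to 0.082 and CAPN3 -0.063 to 0.94; between the forms, OBSL1 -0.026 to 0.093, CAPN3 -0.22 to 0.000047 and COBL -0.18 to 0.20. MYBPC2 was called under WT-MyoD over untreated without the low-count filter (2.14, adjusted p = 0.048). The members' mean share of counts, 0.207%, 0.483% and 1.08%, was 0.117%, 0.261% and 0.918% without the largest member, and in untreated cells 0.214% over protein-coding accessions. With 2 libraries a group and 26 members under 1 CPM in untreated cells, folds over untreated are the least precise values.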
